A study of Mus musculus with 16 samples.

Results

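The Hox genes are the homeobox transcription factors of the HoxA, HoxB, HoxC and HoxD clusters. They were read here in mIMCD3 cells, a mouse epithelial line derived from the collecting duct of the inner medulla, the last segment of the renal tubule. A gene was taken as a member when its symbol was Hoxa, Hoxb, Hoxc or Hoxd followed only by digits, which gave 39 genes of the 55367 symbols in the count files. These 39 are 11 genes of HoxA, 10 of HoxB, 9 of HoxC and 9 of HoxD. The antisense and long noncoding genes inside the clusters are not members and are described apart.

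Within a cluster the genes lie in a fixed order, and their number, the paralog group, gives their place in that order. In the embryo, genes of low number at the 3′ end of a cluster are switched on earlier and closer to the head, and genes of high number at the 5′ end later and closer to the tail, so that the set a cell keeps on records its origin along the body axis. In the kidney, Hox11 paralogs act with Eya1 and Pax2 upstream of Gdnf in the mesenchyme that induces the ureteric bud, the source of the collecting duct. Adult cells and cell lines commonly keep a large part of their Hox pattern, which is held on by Trithorax and held off by Polycomb proteins.

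RNA was sequenced from 16 libraries, 2 biological replicates for each of 8 groups. WT cells received the solvent DMSO or 10 µM SFN (sulforaphane, an activator of the transcription factor Nrf2) for 5 h and were then kept under isosmotic conditions or placed in hyperosmotic medium of 600 mOsm for 1 h or 6 h. Nrf2-/- cells, all pretreated with 10 µM SFN for 5 h, were taken without stress and at 1 h of stress. Nrf2-/- cells given DMSO, and Nrf2-/- cells at 6 h, were not analysed here. The Nrf2-/- line was made with lentiviral Cas9 under blasticidin selection followed by a lentiviral guide under puromycin selection. Most labels name mIMCD3 cells, while the RNA protocol names primary tubular cells. The sources used here do not say whether that line is 1 clone or whether the WT cells went through the same selection, so genotype and line history cannot be told apart.

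Total counts per library lay between 34484296 and 50774875, and Hox genes took 0.0683% to 0.153% of them. Levels are given as CPM, counts scaled to the size of each library. Nfe2l2, the gene that encodes Nrf2, stood at 64 to 78 CPM in WT libraries without stress or at 1 h, at 140 to 149 CPM in WT libraries at 6 h and at 11 to 11.6 CPM in the 4 Nrf2-/- libraries. Of 17 collecting duct markers, 8 reached a mean of at least 1 CPM, led by the keratins Krt8, Krt18 and Krt19 and by Cdh1 and Epcam. The sum of the 17 was 1870 to 3030 CPM in WT and 2290 to 2890 CPM in Nrf2-/- libraries. Most of it came from these keratins, Cdh1 and Epcam. Aqp3, Avpr2, Scnn1b, Scnn1g, Elf5, Foxi1, Slc26a4 and Atp6v1g3 stayed below 1 CPM in every library. The water channel Aqp2, which defines principal cells of the collecting duct, stood at 0.323 CPM or lower in every library and at 0 in the 4 WT isosmotic libraries. The biological coefficient of variation between the 2 libraries of a group was 0.0393 to 0.128 in 7 groups and 0.346 in Nrf2-/- cells at 1 h, where the 2 libraries stood apart from each other.

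Sequences just before the start of 4 members are shown first, because these members carry large stress or genotype differences described further on. The RefSeq table used here, on GRCm38.p6, held 24 starts of 22 members, and the 250 bases before each start were read. The 4 shown have the same start in GENCODE M21. Hoxb8 and Hoxb4 rose most at 6 h of stress in WT cells, Hoxa5 fell at 1 h and 6 h, and Hoxd8 had the largest rise of the members called in Nrf2-/- cells. Capitals mark the letters TGGAAA, the core that NFAT5, the osmotic stress factor, shares with other NFAT proteins, on either strand. Each sequence runs 5′ to 3′ in the direction of its gene and ends 1 base before its start, at chr11:96281655-96281904 on the plus strand for Hoxb8, chr11:96318017-96318266 on the plus strand for Hoxb4, chr6:52204588-52204837 on the minus strand for Hoxa5 and chr2:74704365-74704614 on the plus strand for Hoxd8.
Hoxb8: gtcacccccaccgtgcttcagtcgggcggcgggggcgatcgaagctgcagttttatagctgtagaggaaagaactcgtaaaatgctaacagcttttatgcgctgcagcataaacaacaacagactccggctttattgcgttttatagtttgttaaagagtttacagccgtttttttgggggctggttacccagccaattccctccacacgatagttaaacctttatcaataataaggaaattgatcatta
Hoxb4: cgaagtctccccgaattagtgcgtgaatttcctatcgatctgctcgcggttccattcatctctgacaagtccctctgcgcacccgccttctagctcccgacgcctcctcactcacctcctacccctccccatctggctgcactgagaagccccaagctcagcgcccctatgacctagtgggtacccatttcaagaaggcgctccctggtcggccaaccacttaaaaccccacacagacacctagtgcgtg
Hoxa5: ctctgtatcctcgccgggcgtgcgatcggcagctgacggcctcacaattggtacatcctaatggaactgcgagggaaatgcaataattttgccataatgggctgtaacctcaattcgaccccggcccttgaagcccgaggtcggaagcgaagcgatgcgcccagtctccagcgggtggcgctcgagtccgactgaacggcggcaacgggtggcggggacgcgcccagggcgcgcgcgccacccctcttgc
Hoxd8: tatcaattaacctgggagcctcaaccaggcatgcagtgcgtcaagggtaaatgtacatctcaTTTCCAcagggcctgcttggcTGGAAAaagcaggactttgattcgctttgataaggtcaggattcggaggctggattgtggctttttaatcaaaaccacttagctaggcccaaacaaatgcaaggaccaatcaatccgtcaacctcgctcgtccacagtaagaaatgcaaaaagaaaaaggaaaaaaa
TGGAAA was found on either strand in 6 of the 24 Hox windows, 25%, against 18.6% of 32841 promoter windows of the same length. Among the 4 shown, Hoxd8 held it at 2 places, beginning 188 and 167 bases before the start, and Hoxb8, Hoxb4 and Hoxa5 did not hold these letters. TGACNNNGC, the core of the antioxidant response element through which Nrf2 binds, was found on either strand in 1 Hox window, that of Hoxa6, 4.17%, against 10.2% of all windows. The median ratio of observed to expected CpG was 0.721 over the Hox windows and 0.374 over all windows, with 1.11 in Hoxa5, 0.974 in Hoxb8, 0.760 in Hoxb4 and 0.487 in Hoxd8. A match is a description of letters, and binding was not measured in the data used here.

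The first question was which Hox genes the line expresses. Of 39 members, 23 had a mean of at least 1 CPM in WT DMSO isosmotic cells. They formed blocks: Hoxa2 to Hoxa11 without a gap, Hoxb2 to Hoxb9 with Hoxb13 (9 of 10 HoxB members), and only Hoxc4 and Hoxc9 of HoxC and Hoxd8 and Hoxd9 of HoxD. Hoxc12 and Hoxd11 had no count in any of the 16 libraries, and Hoxc11 had at most 2 counts in a library. The other 13 members were low, among them Hoxa13, the 5′ end of HoxA, with at most 11 counts in a library, and Hoxb1, the 3′ end of HoxB.

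**Figure D1:**
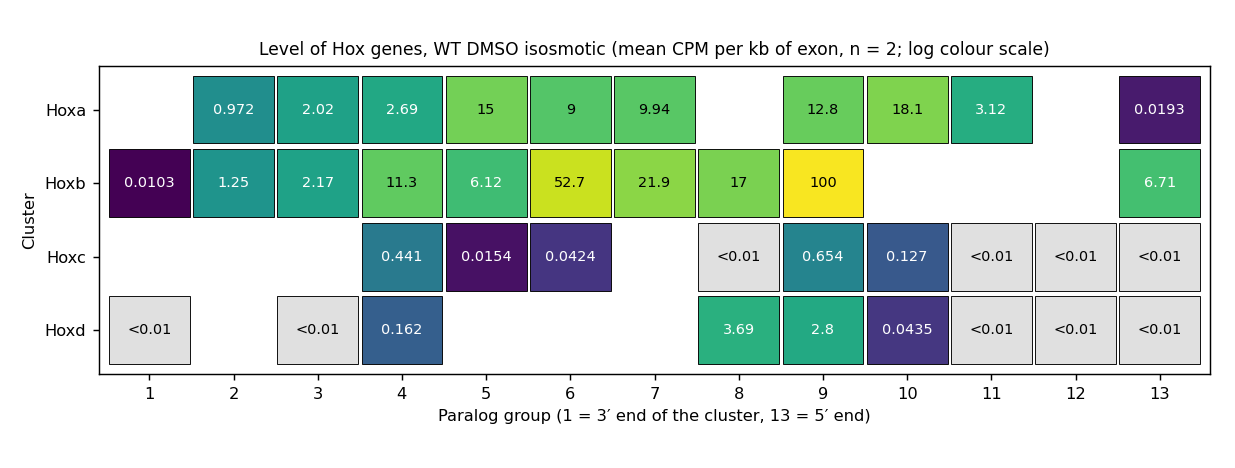
Each square is a Hox gene (1 is not drawn), placed by cluster (rows) and paralog group (columns), with its mean level in CPM per kb of exon over the 2 WT DMSO isosmotic libraries printed and coloured on a log scale; grey squares are below 0.01. The 10 highest squares lie in groups 4 to 10 of HoxA and HoxB, with Hoxb9 at 100.4, while Hoxa4 is at 2.69. The HoxC row and both ends of the HoxD row are near 0.

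Per kb of exon, Hoxb9 was the highest member at 100.4 ± 1.57 CPM per kb (SD, n = 2), at percentile 98.02 of all genes detected. Hoxb6 followed at 52.7 ± 1.89 and Hoxb7 at 21.9 ± 3.6 CPM per kb. Hoxb7 is known from the ureteric bud and its collecting duct, and its promoter is used to drive transgenes there. Hoxa10, Hoxb8 and Hoxa5 came next at 18.1 ± 0.835, 17.04 ± 1.86 and 15 ± 1.12 CPM per kb. The libraries of Hoxb8 overlapped those of both Hoxa10 and Hoxa5, while Hoxa10 was above Hoxa5 in both libraries. Hoxa9 at 12.8 ± 0.215 and Hoxb4 at 11.3 ± 0.349 CPM per kb were above Hoxa7 at 9.94 ± 0.450 CPM per kb. Hoxa6 at 9.001 ± 2.54 CPM per kb overlapped Hoxa7. In HoxD, Hoxd8 stood at 3.69 ± 0.153 and Hoxd9 at 2.80 ± 0.0187 CPM per kb, while Hoxd10 stood at 0.0435 ± 0.0245 CPM per kb. Hoxa11, the only group 11 member above the floor, stood at 3.12 ± 0.204 CPM per kb.

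Hoxb13 was the exception to the block of HoxB. It lies at the 5′ end of the cluster, 74009 bases before Hoxb9, and is known from the tail end of the embryo and from prostate and colon. Its level was 6.71 ± 0.189 CPM per kb, above Hoxb5 at 6.12 ± 0.672 CPM per kb by less than the spread of Hoxb5. Hoxa13, Hoxc13 and Hoxd13, the other group 13 genes, were at 0.0193 CPM per kb or lower.

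The order of levels rests on the exon length used. Exons of Hoxb3 share 52.93% of their bases with other genes, mainly the antisense gene Hoxb3os, those of Hoxa11 share 34.98% with Hoxa11os, and those of Hoxb2 share 27.32% with Hoxb3os. The full CPM was also divided by only the bases shared with no other gene, which can only raise genes with shared bases. Reads on those bases were not counted apart. Hoxb3 then moved from rank 18 to rank 14 and Hoxa11 from 14 to 13. The 7 highest members kept their ranks, which was nearly fixed beforehand: among them only Hoxa9 shares exon bases, at 1.52%. Whether strand was used in counting is not given in the sources used here, so reads of these genes and of their antisense partners cannot be told apart. In bulk RNA, fewer cells expressing a gene and less RNA per cell cannot be told apart.

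By sums of CPM, HoxB held 67.6% of all Hox CPM in both WT DMSO isosmotic libraries, HoxA 29.7% and 29.9%, HoxD 2.28% and 2.09% and HoxC 0.417% and 0.411%. Groups 9 to 13 held 56.0% and 53.9%, groups 4 to 8 held 39.6% and 41.5%, and groups 1 to 3 held 4.33% and 4.62%. The expressed blocks thus ended at group 11 in HoxA and at group 9 in HoxB and HoxD, with Hoxb13 beyond.

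**Figure D2:**
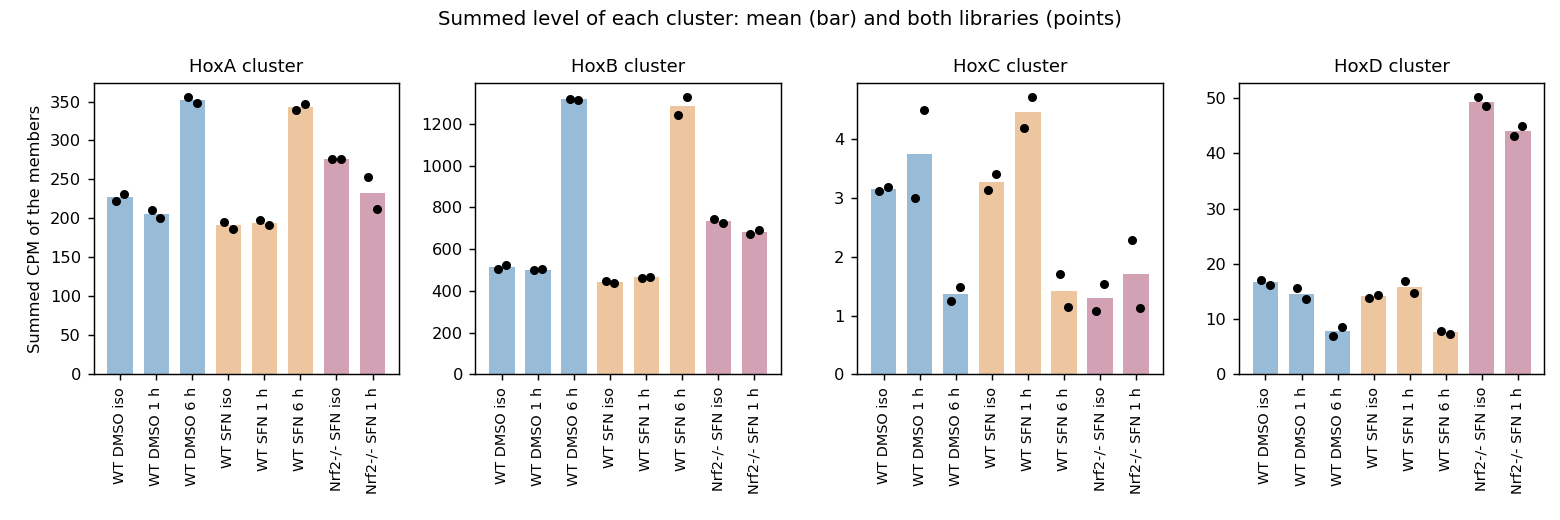
Summed CPM of the members of each cluster in the 8 groups, as the mean of 2 libraries (bars, from 0) and the value of each library (points). HoxB and HoxA are highest in both WT 6 h groups, HoxD is highest in both Nrf2-/- groups, and HoxC is lowest in the WT 6 h and Nrf2-/- groups.

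The next question was how hyperosmotic stress changed these genes in WT cells pretreated with DMSO. At 6 h the HoxB block rose, and Hoxa4 to Hoxa6 and the expressed HoxD genes fell. Of 28 members tested, 18 were called at an adjusted p under 0.05 by edgeR's quasi-likelihood test with Benjamini-Hochberg adjustment, 10 higher and 8 lower. Among all 19509 genes tested the shares called were 45.9% in all, 23.9% higher and 22% lower, against 64.3% of the members in all. The median log2 fold change of the members was 0.15, and that of all genes was 0.05. Of 10 HoxB members tested, 8 rose, Hoxb13 fell, and Hoxb1 did not pass. In HoxA, Hoxa9 and Hoxa10 rose, and Hoxa4, Hoxa5 and Hoxa6 fell. In HoxC and HoxD none rose, and Hoxc9, Hoxd8 and Hoxd9 fell.

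Hoxb8, a group 8 gene next to Hoxb9, had the largest rise. It stood at 41.4 and 48.4 CPM in the isosmotic libraries and at 278 and 286 CPM at 6 h, with no overlap. Its log2 fold change was 2.65 ± 0.12 (SE; edgeR quasi-likelihood test, adjusted p = 8.62e-10). Within a library, the ratio of Hoxb8 to Hoxb9 rose from 0.159 and 0.189 to 0.508 and 0.535, with no overlap.

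Hoxb4, known for its use in expanding blood stem cells, stood at 28.5 and 29.7 CPM before and 97.1 and 97.8 CPM at 6 h, a log2 fold change of 1.74 ± 0.25 (edgeR, adjusted p = 6.52e-05). Hoxb6 stood at 101 and 106 CPM before and 266 and 275 CPM at 6 h, a log2 fold change of 1.39 ± 0.21 (edgeR, adjusted p = 0.000107). In both genes the libraries of the groups were far apart compared with the pairs. Hoxb9, the most abundant member, stood at 261 and 256 CPM before and 548 and 534 CPM at 6 h, a log2 fold change of 1.07 ± 0.11 (edgeR, adjusted p = 2.59e-06).

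Hoxb2, Hoxb3 and Hoxb5 rose by 1.28, 1.22 and 1.22 on the log2 scale, and Hoxb7 by 0.50. The rise of Hoxb7 was the smallest, and its highest adjusted p over 12 alternatives was 0.183. Hoxb13 went the other way, from 14.5 and 15.1 CPM to 5.42 and 6.73 CPM, a log2 fold change of -1.29 ± 0.26 (edgeR, adjusted p = 0.000925). It is set apart from the block by 74009 bases, while the gaps between members from Hoxb9 to Hoxb2 are 1307 to 12145 bases.

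In HoxA the falls of Hoxa4 to Hoxa6 lay on the 3′ side of the rises of Hoxa9 and Hoxa10. Hoxa2 and Hoxa3, nearer the 3′ end, stood at 0.15 and 0.27 on the log2 scale and did not pass. Hoxa5 stood at 26.7 and 29.7 CPM before and at 9.53 and 10.7 CPM at 6 h, a log2 fold change of -1.48 ± 0.14 (edgeR, adjusted p = 9.08e-07). It was lower at 6 h in both libraries without overlap.

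Hoxa9, whose product is known from blood cell precursors and leukaemia, stood at 72.0 and 70.4 CPM before and 180 and 172 CPM at 6 h, a log2 fold change of 1.30 ± 0.10 (edgeR, adjusted p = 2.54e-07). Hoxa10 rose from 57.2 and 61.1 CPM to 107 and 102.5 CPM, by 0.83 on the log2 scale. The ratio of Hoxa9 to Hoxa5 within a library was 2.70 and 2.37 before stress and 18.8 and 16.1 at 6 h. Hoxa4 and Hoxa6 fell by 1.02 and 1.12 on the log2 scale.

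In HoxD, Hoxd9 stood at 6.00 and 5.95 CPM before and 1.51 and 1.02 CPM at 6 h, a log2 fold change of -2.24 ± 0.22 (edgeR, adjusted p = 2.05e-06). Hoxd8 fell by 0.69 on the log2 scale. Hoxc9 fell by 1.33 on the log2 scale, at 1.501 and 1.68 CPM before and 0.522 and 0.741 CPM at 6 h, with a highest adjusted p of 0.148 over the alternatives.

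Summed over each cluster, HoxB was 2.56 times its isosmotic level at 6 h, at 1314 and 1319 CPM against 506 and 524 CPM. HoxA was 1.55 times its isosmotic level, HoxD 0.470 times and HoxC 0.433 times. The share of HoxB in all Hox CPM was 78.4% and 78.6% at 6 h. With 2 libraries a side, the smallest two-sided p of an exact permutation test is 0.333, so these sums are given without a test. The factors of TMM, which scales the libraries, were 0.903 to 0.911 in the 6 h libraries and 1.03 to 1.07 in the other WT libraries. With total counts only, the median log2 fold change of all genes at 6 h moved from 0.05 to -0.13, and 9 members were called higher and 9 lower. Markers of this and other cell types moved with the 6 h groups: of those tested with edgeR's quasi-likelihood test, 4 of 11 collecting duct markers were higher and 1 lower, and 3 of 3 proximal tubule, 4 of 5 fibroblast and stroma, 2 of 3 endothelial and 2 of 3 leukocyte markers were higher and 0 lower. Across the WT libraries the endothelial sum was 0.0476 to 5.36 CPM and the leukocyte sum 1.93 to 10.7 CPM, and the part of these genes in the Hox changes was not tested.

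**Figure D3:**
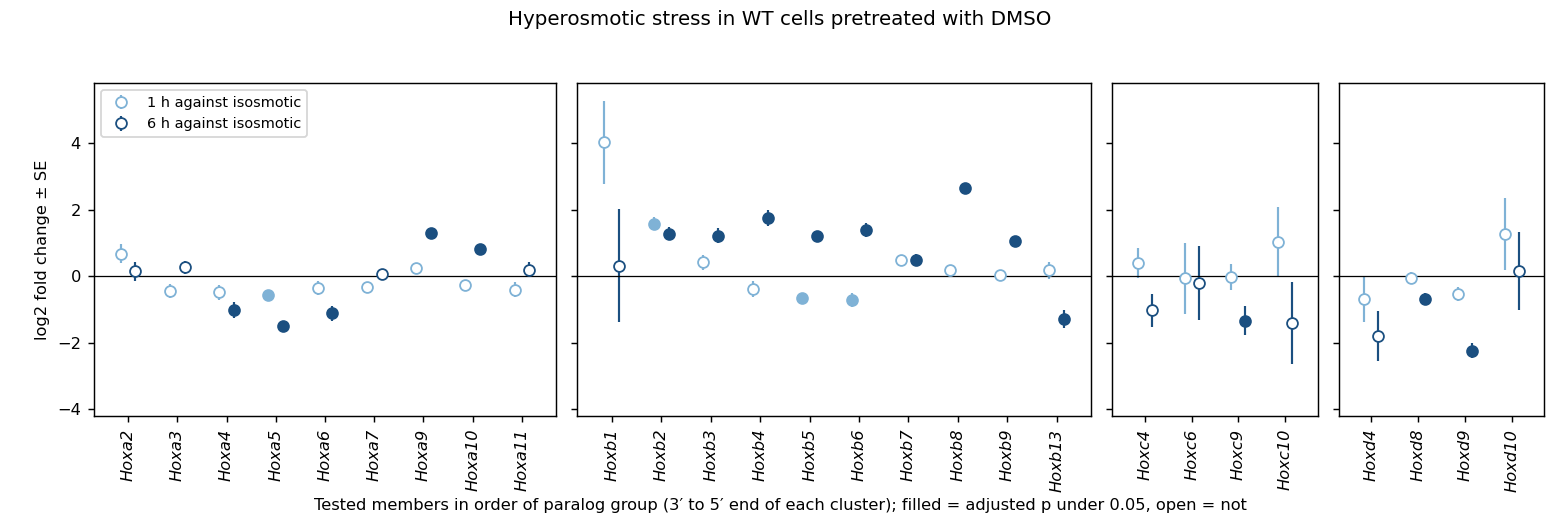
Log2 fold change with its SE for tested members (1 is not drawn) after 1 h (light) and 6 h (dark) of hyperosmotic stress against isosmotic conditions, WT cells with DMSO; members run from the 3′ to the 5′ end of each cluster and filled points passed the test. At 6 h Hoxb2 to Hoxb9 are above 0 and Hoxb13 is below. In HoxA, groups 4 to 6 are below 0 and the other members drawn are above 0, of which only Hoxa9 and Hoxa10 are filled. The point of Hoxb1 at 1 h rests on 2 counts in the isosmotic libraries.

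At 1 h fewer members passed, and the block that rose at 6 h was partly lower. Of 28 members, 5 were called by edgeR's quasi-likelihood test, Hoxb2 higher and 4 lower, among them Hoxa5, Hoxb5 and Hoxb6. That is 17.9% of the members, beside 11.2% of all genes in all, 7.1% higher and 4.11% lower. The median log2 fold change was -0.06 over the members and 0.00158 over all genes. The count moved both ways with the model. It was 8 with DESeq2, 10 in a fit of the 4 libraries compared and 11 in a fit of the 12 WT libraries. Here and below, counts in alternative fits are given without the share of all genes called, unless that share is printed. They are therefore not set against a background and are not read as a result about the Hox genes. It was 1 to 3 when 1 of the 4 libraries was left out, lowest at 1 without WT DMSO isosmotic replicate 2 or WT DMSO 1 h replicate 2, 2 without WT DMSO 1 h replicate 1 and 3 without WT DMSO isosmotic replicate 1.

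Hoxb2, a hindbrain gene of the 3′ part of HoxB, stood at 3.96 and 4.75 CPM before and 11.6 and 14.5 CPM at 1 h, with no overlap. Its log2 fold change was 1.58 ± 0.20 (edgeR, adjusted p = 0.000176), and it kept its call in all 12 alternatives. At 6 h it stood at 11.04 and 10.2 CPM.

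Hoxb6 stood at 64.2 and 61.4 CPM at 1 h, below its isosmotic libraries, a log2 fold change of -0.72 ± 0.21 (edgeR, adjusted p = 0.0397). Its call was lost in 6 of 12 alternatives, with a highest adjusted p of 0.203 by edgeR's test. Hoxb5 stood at 11.6 and 10.2 CPM, against 15.7 and 18.4 CPM before, a log2 fold change of -0.65 ± 0.14 (edgeR, adjusted p = 0.00688), lost in 2 of 12 alternatives. Both were above their isosmotic libraries at 6 h. Hoxa5, at 18.9 and 19.1 CPM, lay between its isosmotic and 6 h libraries, with a log2 fold change of -0.57 at 1 h, a call lost in 3 of 12 alternatives.

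Hoxb1, next to Hoxb2 at the 3′ end of HoxB and 11739 bases past its end, had 2 and 0 counts in the isosmotic libraries and 12 and 22 counts at 1 h. The ratio was 18.1, with a counting interval of 4.64 to 155 (exact, 95%), and the adjusted p by edgeR's quasi-likelihood test was 0.0538. At 6 h it had 2 and 0 counts again.

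**Figure D4:**
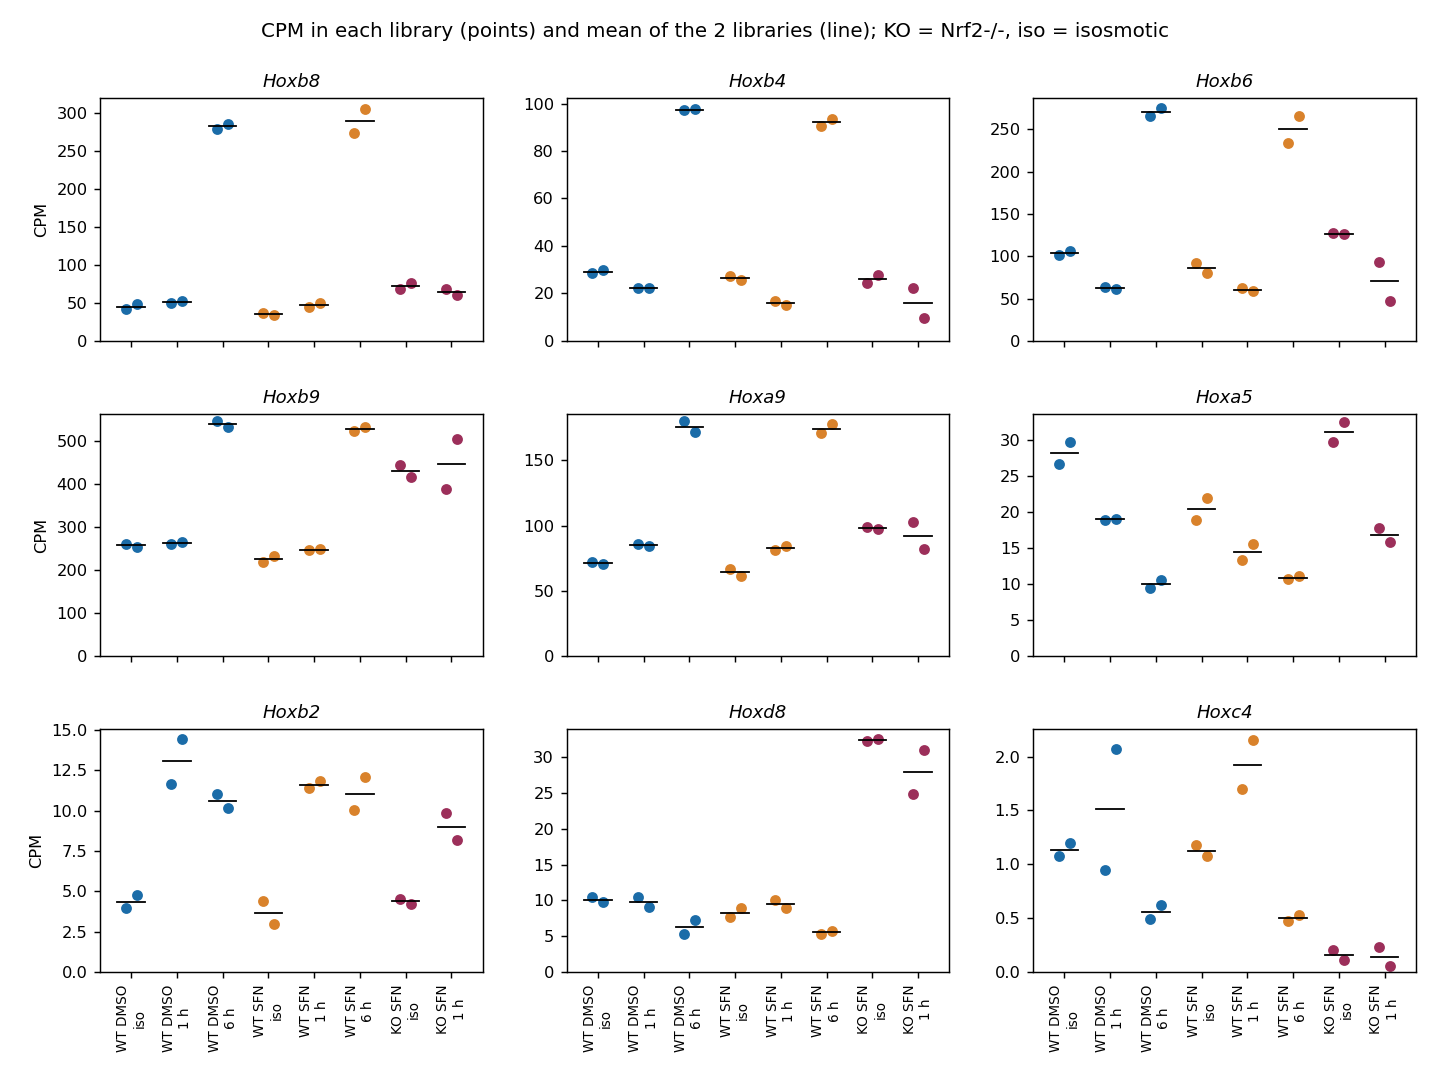
CPM of 9 members in each library (points, linear axes from 0) with the mean of the 2 libraries (lines), for WT DMSO (blue), WT SFN (orange) and Nrf2-/- SFN (purple). Hoxb8, Hoxb4 and Hoxb6 are highest in the 6 h groups, Hoxa5 is lowest there, Hoxb2 is already high at 1 h, and Hoxd8 and Hoxc4 separate the Nrf2-/- from the WT libraries.

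WT cells pretreated with SFN were compared with their own isosmotic libraries in the same way. At 6 h, 22 of 28 members were called by edgeR's quasi-likelihood test, 78.6%, with 13 higher and 9 lower, beside 47.6% of all genes, 24.7% higher and 22.9% lower. The median log2 fold change of the members was -0.38, or -0.28 when Hoxb1, at the count floor in both groups, was left out, and that of all genes was 0.09. HoxB again had 8 higher and Hoxb13 lower. Hoxb8 stood at 37.1 and 34.1 CPM before and 274 and 305 CPM at 6 h, a log2 fold change of 3.02 ± 0.12 (edgeR, adjusted p = 2.1e-10).

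Other members called with at least 1 CPM were Hoxb4 at 1.80, Hoxb2 at 1.60, Hoxb6 at 1.54, Hoxd9 at -1.53, Hoxb5 at 1.48 and Hoxa9 at 1.44 on the log2 scale. Hoxc6 and Hoxd10, both low, also passed. Hoxc6 had 30 and 22 counts before and 1 and 5 at 6 h, while with DMSO it had 3 and 6 counts before and 6 and 0 at 6 h. Hoxd10 had 8 and 21 counts before and 1 and 0 at 6 h, a ratio of 0.0476 with a counting interval of 0.00116 to 0.287. A further 12 members called had smaller log2 fold changes between -1.32 and 1.23.

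At 1 h with SFN, 6 of 28 members were called by edgeR's quasi-likelihood test, 21.4%, with 4 higher and 2 lower, beside 9.52% of all genes, 5.94% higher and 3.58% lower. Hoxb2 stood at 4.40 and 2.95 CPM before and 11.4 and 11.8 CPM at 1 h, a log2 fold change of 1.67 ± 0.21 (edgeR, adjusted p = 0.00016). Hoxb7, Hoxb8 and Hoxa9 rose by 0.62, 0.42 and 0.37 on the log2 scale, and Hoxa5 and Hoxb5 fell by 0.50 and 0.53. The counts in alternative fits that follow are given without the share of all genes. The count was 10 in a fit of the 12 WT libraries, 2 without WT SFN isosmotic replicate 1 and 1 without any of the other 3 libraries. Hoxb1 had 1 and 1 counts before and 13 and 8 at 1 h, and its adjusted p was 0.119.

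Because several members lay below their isosmotic libraries at 1 h and above them at 6 h, these times were also compared directly within each pretreatment, a comparison added after the data were seen. By edgeR's quasi-likelihood test 20 of 28 members differed with DMSO, beside 42.4% of all genes, and 18 of 28 with SFN, beside 42.6% of all genes. For the members named next, seen first in that order, the direction is fixed by the choice, and the 1 h fall of Hoxb4 with DMSO had not passed (edgeR, adjusted p = 0.395). Hoxb6 at 6 h was 2.11 ± 0.22 above 1 h with DMSO on the log2 scale (edgeR, adjusted p = 3.12e-06), and Hoxb5 was 1.87 ± 0.14 above (edgeR, adjusted p = 1.05e-07). Hoxb4 was 2.12 ± 0.25 above 1 h (edgeR, adjusted p = 1.36e-05). Without WT DMSO 1 h replicate 1, 13 members differed with DMSO.

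The question of SFN itself, as an activator of Nrf2, was put at each time in WT cells. No member was called by edgeR's quasi-likelihood test at any time. The background was 2.84% of all genes under isosmotic conditions, 0.0923% at 1 h and 0.041% at 6 h. At an unadjusted p under 0.05 there were 5, 2 and 0 members, or 17.9%, 7.14% and 0%, beside 15.4%, 3.43% and 3.68% of all genes. Under isosmotic conditions 22 of the 23 expressed members were below 0, between -0.49 for Hoxc9 and 0.54 for Hoxa2 on the log2 scale, with a median SE of 0.20. The median log2 fold change was -0.17 over the 28 members tested and 0 over all genes. All members were read in the same libraries, so their signs are not independent results, and a shift of the family was not tested.

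Hoxa5 was at 26.7 and 29.7 CPM with DMSO and 18.9 and 21.9 CPM with SFN under isosmotic conditions, without overlap. Its adjusted p was 0.0819 by edgeR's quasi-likelihood test. Under isosmotic conditions DESeq2 called 2 members lower, a fit of the 4 libraries compared called 1 lower, a filter of at least 10 counts in every library left 1 called lower, and a fit of the 12 WT libraries called 6 lower, beside 15.2% of all genes in that last fit. At 1 h the fit of the libraries compared called 2 lower and that of the 12 WT libraries 1 lower, while DESeq2 called 0 at 1 h and 0 at 6 h.

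Some Hox genes differed between the Nrf2-/- line and WT cells, both groups with SFN, as did many other genes. Under isosmotic conditions 12 of 28 members were called by edgeR's quasi-likelihood test, 42.9%, with 10 higher and 2 lower in Nrf2-/- cells. Of all genes 34.1% were called, 15.7% higher and 18.4% lower. The median log2 fold change was 0.39 over the members and -0.000912 over all genes. The members that were higher were Hoxa5, Hoxa7, Hoxa9, Hoxa10 and Hoxa11, Hoxb5, Hoxb8 and Hoxb9, and Hoxd8 and Hoxd9. The 2 lower members were Hoxc4 and Hoxb13.

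Hoxd8, the sequence of which is shown above, had the largest rise. It stood at 7.70 and 8.90 CPM in WT and 32.3 and 32.6 CPM in Nrf2-/- libraries, a log2 fold change of 1.96 ± 0.17 (edgeR, adjusted p = 5.26e-07). Its neighbour Hoxd9 stood at 5.44 and 4.54 CPM in WT and 15.8 and 14.1 CPM in Nrf2-/- libraries, a log2 fold change of 1.59 ± 0.20 (edgeR, adjusted p = 1.86e-05). Neither gene overlapped between the genotypes. HoxD as a whole was 3.50 times its WT sum, at 50.2 and 48.6 CPM against 13.9 and 14.3 CPM.

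Hoxa11, a group 11 gene of the metanephric kidney, stood at 5.63 and 4.86 CPM in WT and 11.9 and 12.1 CPM in Nrf2-/- libraries, a log2 fold change of 1.19 ± 0.22 (edgeR, adjusted p = 0.000677). The antisense gene Hoxa11os, which shares exon bases with it, was also higher, by 1.5 on the log2 scale. Hoxb8 and Hoxb9 rose by 1.03 and 0.93 on the log2 scale, with Hoxb9 at 219 and 233 CPM in WT and 446 and 417 CPM in Nrf2-/- libraries. Hoxb5, Hoxa10, Hoxa9, Hoxa5 and Hoxa7 were higher by 0.42 to 0.71 on the log2 scale.

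Hoxc4 stood at 1.18 and 1.08 CPM in WT and 0.199 and 0.108 CPM in Nrf2-/- libraries, a log2 fold change of -2.86 ± 0.56 (edgeR, adjusted p = 0.00115). Hoxb13 stood at 13.97 and 12.9 CPM in WT and 5.06 and 4.08 CPM in Nrf2-/- libraries, a log2 fold change of -1.55 ± 0.26 (edgeR, adjusted p = 0.000317). Hoxb13 was thus lower both at 6 h of stress in WT cells and in the Nrf2-/- line, in opposite direction to Hoxb9 in both comparisons.

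At 1 h of stress, 10 of 28 members differed between the genotypes by edgeR's quasi-likelihood test, 35.7%, with 7 higher and 3 lower, beside 31.5% of all genes, 15.3% higher and 16.2% lower. Hoxd8 stood at 10.0 and 8.87 CPM in WT and 24.9 and 31.1 CPM in Nrf2-/- libraries, a log2 fold change of 1.57 ± 0.17 (edgeR, adjusted p = 5.7e-06). Hoxc4 stood at 1.70 and 2.15 CPM in WT and 0.227 and 0.0577 CPM in Nrf2-/- libraries, a log2 fold change of -3.72 ± 0.57 (edgeR, adjusted p = 0.000149). Hoxd9, Hoxa11, Hoxb9, Hoxb8, Hoxa7 and Hoxa10 were higher by 0.37 to 1.36 on the log2 scale, and Hoxb13 and Hoxa4 lower by 1.54 and 1.11. The SE and p-values of edgeR here use 1 spread per gene over all 16 libraries, not that of the Nrf2-/- 1 h pair alone. In a fit of only the 4 libraries compared, 3 members were called. This count and those that follow are given without the share of all genes. The count was 14 without Nrf2-/- 1 h replicate 2 and 15 without replicate 1, the pair of libraries that stood apart.

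**Figure D5:**
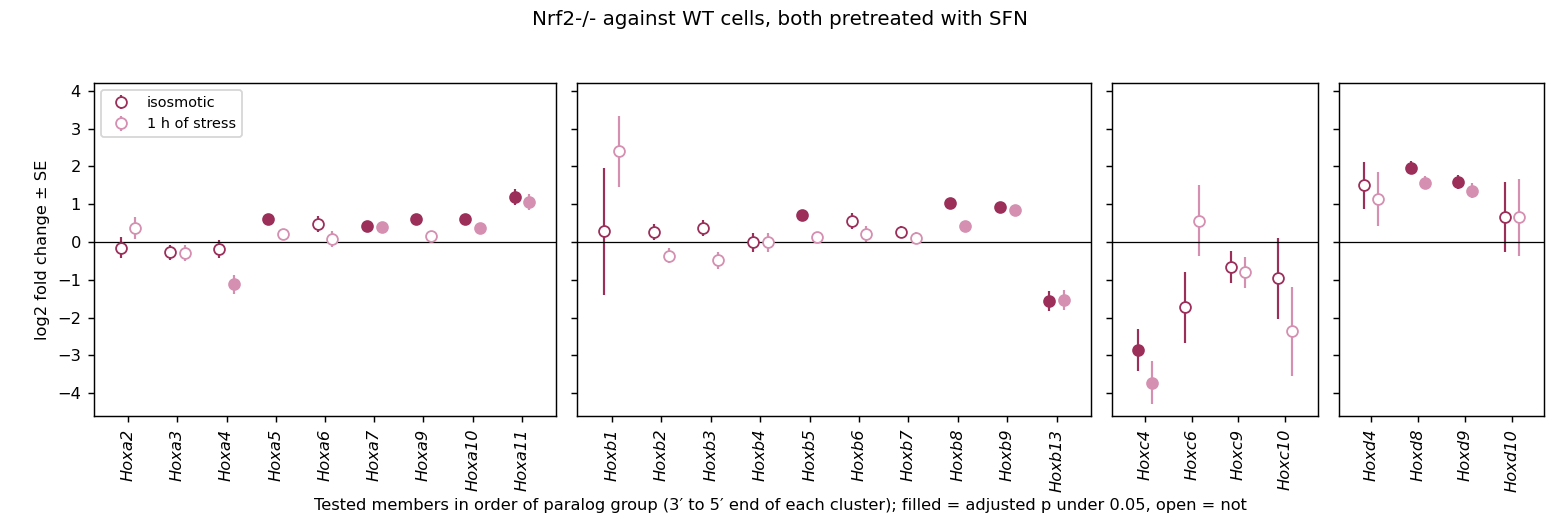
Log2 fold change with its SE of tested members (1 is not drawn) in Nrf2-/- against WT cells, both with SFN, under isosmotic conditions (dark) and after 1 h of stress (light); members run from the 3′ to the 5′ end of each cluster and filled points passed the test. Hoxd8, Hoxd9, Hoxa11 and Hoxb9 are above 0 and Hoxb13 and Hoxc4 below 0 at both times.

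Markers of the line itself and of other cell types moved with the genotype. Of 11 collecting duct markers tested under isosmotic conditions, 3 were higher and 2 lower in Nrf2-/- cells by edgeR's quasi-likelihood test. Epcam stood at 50.3 and 47.3 CPM in WT and 264 and 304 CPM in Nrf2-/- libraries, Cdh1 at 138 and 147 CPM and 438 and 438 CPM, and Elf3, which was lower, at 26.2 and 25.8 CPM and 9.59 and 10.1 CPM. Foxd1, a gene of the renal stroma, stood at 66.1 to 117 CPM in the 12 WT libraries and 1.47 to 1.93 CPM in the 4 Nrf2-/- libraries. Of the 8 genes of the fibroblast and stroma list, 2 reached a mean of at least 1 CPM, Foxd1 and the collagen gene Col1a1, and Dcn and Lum, which define fibroblasts, had at most 3 counts in any library. Of the 5 tested, Foxd1 and Col1a1 were lower and the collagen genes Col3a1 and Col1a2 higher, Col3a1 at 0 in both WT SFN isosmotic libraries and 1.25 and 2.28 CPM in Nrf2-/- libraries, and Col1a2 at 0 and at 0.455 and 0.457 CPM. The sum of the list, most of it Foxd1 in WT, was 69.3 to 122 CPM in WT and 4.82 to 6.26 CPM in Nrf2-/- libraries, and that of the 6 proximal tubule markers 9.06 to 27.6 CPM and 2.50 to 5.88 CPM, with Umod of the loop of Henle at 0 in every library. The part of these shifts in the Hox differences was not tested.

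Within the Nrf2-/- line, 1 h of stress changed 7 of 28 members by edgeR's quasi-likelihood test, 25%, with 2 higher and 5 lower, beside 7.17% of all genes, 4.36% higher and 2.81% lower. Hoxb1 had 0 and 2 counts before and 23 and 77 counts at 1 h, a ratio of 51.7 with a counting interval of 13.9 to 433. That interval leaves out the spread between libraries, which stood at 0.651 and 2.22 CPM at 1 h. The call of Hoxb1 (edgeR, adjusted p = 0.0146) was lost in 3 of 10 alternatives. Hoxb2 stood at 4.52 and 4.22 CPM before and 9.83 and 8.16 CPM at 1 h, a log2 fold change of 1.04 ± 0.21 (edgeR, adjusted p = 0.00682). Hoxb5 stood at 22.6 and 24.5 CPM before and 11.7 and 10.1 CPM at 1 h, a log2 fold change of -1.11 ± 0.14 (edgeR, adjusted p = 0.000229). The SE and p-values of this comparison use 1 spread per gene over all 16 libraries. They do not measure the wider spread of the Nrf2-/- 1 h pair alone.

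Hoxa4, Hoxa5, Hoxa6 and Hoxb6 were lower by 0.85 to 1.00 on the log2 scale. For Hoxb6 the 2 libraries at 1 h were at 93.5 and 47.1 CPM, against 127 and 126 CPM before. The counts in alternative fits below are given without the share of all genes. The count was 13 without Nrf2-/- 1 h replicate 1, 4 and 3 without Nrf2-/- isosmotic replicates 1 and 2, 4 with a minimum of 10 counts in every library, and 0 in a fit of the 4 libraries compared. Whether the response to 1 h differed between the genotypes was tested as an interaction, and no member was called by edgeR's quasi-likelihood test, beside 0.123% of all genes. At an unadjusted p under 0.05 there were 6 members, 21.4%, beside 7.35% of all genes. DESeq2 called 1 member, and 7 members were called without Nrf2-/- 1 h replicate 1 and 2 without replicate 2.

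Proteins that act with Hox proteins on DNA were read from a list of 11 TALE homeobox genes, all tested. At 6 h with DMSO 6 were higher and 4 lower by edgeR's quasi-likelihood test, 54.5% and 36.4%, beside 23.9% and 22% of all genes, with a median log2 fold change of 0.30 beside 0.05 over all genes. The same shares of all genes stand beside the lists that follow. Meis1, a partner of the posterior Hox proteins, stood at 4.41 and 3.85 CPM before and 0.522 and 1.11 CPM at 6 h, a fall of 2.34 on the log2 scale. Pbx4 rose by 1.78 and Tgif2 by 1.66 on the log2 scale, and Pknox2, below 0.7 CPM in these libraries, by 3.47. In Nrf2-/- cells under isosmotic conditions 2 were higher and 3 lower, 18.2% and 27.3%, beside 15.7% and 18.4% of all genes, with a median of -0.27 beside -0.000912 over all genes. Tgif1, a repressor of the TALE class, rose by 1.58 and Meis3 fell by 0.70 on the log2 scale.

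Of 24 Polycomb and Trithorax genes, all tested, 7 were higher and 2 lower at 6 h with DMSO, with a median of 0.16. The higher share, 29.2%, was near the 23.9% of all genes, and the lower share, 8.33%, was below the 22% of all genes. Cbx2, a Polycomb subunit, stood at 23.6 and 23.6 CPM before and 79.8 and 79.5 CPM at 6 h, a rise of 1.75 on the log2 scale. Kdm6b, a demethylase of histone H3 lysine 27, and Kmt2a, a Trithorax methyltransferase, rose by 1.28 and 1.25, and Ring1 fell by 1.63 on the log2 scale. In Nrf2-/- cells under isosmotic conditions 8 were higher and 5 lower, 33.3% and 20.8%, with a median of 0.20, and with Kdm6a higher by 1.23 and Ring1 lower by 1.08 on the log2 scale.

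Of 16 genes that carry Cdx or retinoic acid signals to Hox genes, 12 were tested, and 5 were higher and 1 lower at 6 h with DMSO, 41.7% and 8.33%, with a median of 0.62. Crabp2, a retinoic acid binding protein, stood at 0.619 and 1.17 CPM before and 14.7 and 14 CPM at 6 h, a rise of 3.99 on the log2 scale. Aldh1a1, a retinoic acid enzyme, and Cyp26b1, which degrades retinoic acid, rose by 4.05 and 3.41 on the log2 scale. Both rises rest on few counts before stress, with Aldh1a1 at 0.334 and 0.0884 CPM and Cyp26b1 at 0.119 and 0.0663 CPM. Cdx2, a caudal factor that acts on posterior Hox genes, was listed at 0 in both isosmotic libraries and at 0.840 and 0.587 CPM at 6 h. In Nrf2-/- cells under isosmotic conditions 0 were higher and 2 lower, 0% and 16.7%, with a median of -0.28. Aldh1a2, which makes retinoic acid, stood at 49.0 and 48.9 CPM in WT and 2.33 and 2.26 CPM in Nrf2-/- libraries, a fall of 4.41 on the log2 scale.

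Of 15 kidney genes that act with or downstream of Hox11, 13 were tested, and 10 were higher and 1 lower at 6 h with DMSO, 76.9% and 7.69%, with a median of 1.04. Pax2, a master regulator of the nephric duct, stood at 119 and 120 CPM before and 1140 and 1150 CPM at 6 h, a rise of 3.26 on the log2 scale, and Pax8 rose by 2.90. Ret, the receptor of Gdnf, and Itga8, an integrin of the metanephric mesenchyme, also passed, both from near 0. Ret stood at 0.0238 and 0 CPM before and 1.25 and 1.17 CPM at 6 h. Itga8 stood at 0 in both isosmotic libraries and at 0.406 and 0.803 CPM at 6 h. Eya1 and Gdnf were named after their values were seen, as the partner and the target of Hox11, and Eya1 rose by 2.72 and Gdnf fell by 1.08 on the log2 scale. In Nrf2-/- cells under isosmotic conditions 3 were higher and 4 lower, 23.1% and 30.8%, with a median of 0. Gdnf stood at 7.56 and 8.71 CPM in WT and 35.5 and 38.0 CPM in Nrf2-/- libraries, a rise of 2.17 on the log2 scale. Osr1, of the early kidney field, stood at 0.134 and 0 CPM in WT and 6.06 and 6.77 CPM in Nrf2-/- libraries. Its fitted rise of 6.75 on the log2 scale rests on few counts in WT. Eya1 rose by 1.89, and Pax2 fell by 2.40 and Gata3 by 2.38 on the log2 scale.

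Other genes inside the clusters were read to see whether the noncoding transcripts moved with their neighbours. Of 23 such genes in the files, 15 were tested. At 6 h with DMSO 3 were higher and 0 lower, Gm53, Hoxb5os and the pseudogene Gm11539, all in HoxB, 20% and 0%, with a median of 0.37 over the list. Gm53, a long noncoding gene between Hoxb13 and Hoxb9, stood at 39.1 and 33.9 CPM before, 26.7 and 29.6 CPM at 1 h and 136 and 125 CPM at 6 h, with a rise of 1.83 on the log2 scale at 6 h. Hoxb5os, whose span covers Hoxb5 and Hoxb6 on the other strand, stood at 11.2 and 7.36 CPM before, 3.96 and 4.40 CPM at 1 h and 22.2 and 19.1 CPM at 6 h. It was lower at 1 h and higher at 6 h, by 1.15 on the log2 scale each way.

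Of 17 genes on the flanks of the 4 clusters, 14 were tested, and 1 was higher and 6 lower at 6 h with DMSO, 7.14% and 42.9%, with a median of -0.31. Cbx1, beside HoxB, named after its value was seen, was the gene that was higher, by 0.22 on the log2 scale. Its neighbours Skap1 and Snx11 fell by 0.87 and 0.49 on the log2 scale. Lnpk, beside HoxD, fell by 1.04 on the log2 scale. In Nrf2-/- cells under isosmotic conditions 3 flanking genes were higher and 2 lower, 21.4% and 14.3%, with a median of 0.12, and with Skap1 higher by 1.43 on the log2 scale.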

How the data were processed

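RNA was sequenced from 16 libraries of mIMCD3 cells. The authors deposited read counts per gene, made per the labels with Bowtie2, SAMtools and featureCounts on mm10, while the study's methods name Hisat2. Versions, annotation and strand setting are not given in the sources used here. Lines without a symbol (2 in 1 library and 3 in another) were left out.

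Counts were scaled with TMM and tested in 1 model of the 8 groups with edgeR 4.0.16 in R 4.3.3 (quasi-likelihood F-test, robust, filterByExpr, 19509 genes). Adjusted p-values are Benjamini-Hochberg values over all genes tested, with a threshold of 0.05. CPM uses TMM library sizes, and levels per kb use exon unions of GENCODE M21 on GRCm38. The 39 members and the gene lists were chosen with earlier results of these data known. Members called were named by the size of the fold change, up to 10 per comparison with full values, and from the other lists up to 4 called genes; others were named after their values were seen. Alternatives were DESeq2 1.42.0, RLE size factors, other filters, other sets of libraries, a replicate block, leaving out each library, and total counts, the last added after the data were seen. The models were tested on simulated data. Same-numbered replicates did not deviate together: the correlation of deviations was -0.0794 to 0.123 over 28 pairs of groups, with 1 above 0.1. Intervals of low counts are exact, at 95%, and cover counting error only. Promoter sequences are from RefSeq on GRCm38.p6. Some genes are not reported here by name, and counts of members and lists include them.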

Additional observations from a re-analysis of the deposited data

Results flagged for a closer look

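Several members lay on one side of both isosmotic libraries at 1 h of stress and on the other side at 6 h, in both libraries each time. They were picked for that order, so the direction of 6 h against 1 h was fixed by the choice, and the adjusted p-values below, from edgeR's quasi-likelihood test of 6 h against 1 h with Benjamini-Hochberg adjustment over all genes, do not test a change in both directions. With DMSO, 5 members lay below their isosmotic libraries at 1 h and above them at 6 h. Their differences of 6 h against 1 h on the log2 scale were 2.12 for Hoxb4 (adjusted p = 1.36e-05), 2.11 for Hoxb6 (adjusted p = 3.12e-06), 1.87 for Hoxb5 (adjusted p = 1.05e-07), 1.10 for Hoxa10 (adjusted p = 4.35e-06) and 0.60 for Hoxa11 (adjusted p = 0.0419). Against isosmotic cells, Hoxb5 and Hoxb6 passed at both times, Hoxb4 and Hoxa10 at 6 h but not at 1 h (edgeR, adjusted p = 0.395 and 0.179), and Hoxa11 at neither (edgeR, adjusted p = 0.301 and 0.496). Hoxb13 lay the other way, with a difference of -1.46 (adjusted p = 0.000349), and passed at 6 h but not at 1 h (edgeR, adjusted p = 0.743). Hoxc10, a low member, also lay the other way, with a difference of -2.43 that did not pass (adjusted p = 0.12).

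With SFN, Hoxb4, Hoxb5, Hoxb6 and Hoxa3 lay below their isosmotic libraries at 1 h and above them at 6 h. The differences of 6 h against 1 h were 2.53 for Hoxb4 (adjusted p = 3.31e-06), 2.02 for Hoxb5 (adjusted p = 5.48e-08), 2.05 for Hoxb6 (adjusted p = 4.09e-06) and 1.14 for Hoxa3 (adjusted p = 0.000369). All 4 passed against isosmotic cells at 6 h, but at 1 h only Hoxb5 did (edgeR, adjusted p = 0.0251), beside Hoxb4 at 0.0876, Hoxb6 at 0.168 and Hoxa3 at 0.0923. The libraries of Hoxc4 and Hoxc9 lay above the isosmotic ones at 1 h and below them at 6 h, with differences of -1.94 (adjusted p = 0.00486) and -1.93 (adjusted p = 0.00278). Neither passed against isosmotic cells at 1 h (edgeR, adjusted p = 0.364 and 0.442), and at 6 h Hoxc9 passed (edgeR, adjusted p = 0.0258) and Hoxc4 did not (edgeR, adjusted p = 0.0632). Hoxb1 had 13 and 8 counts at 1 h and 0 and 0 at 6 h, at least 5.91-fold lower against a floor of 3 counts over the group. Its fitted difference of -6.39 (adjusted p = 0.0164) depends on the prior count and is no bound.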

How the results depend on the processing

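No log2 fold change of a member called changed direction in any alternative run, and DESeq2 and RLE size factors kept all 118 calls of single members. Of the 118, total counts in place of TMM kept 106 and lost 12, and no filter kept 110 and lost 8. A fit of the libraries compared kept 102, lost 14 and gave no value for 2, and a minimum of 10 counts in every library kept 103, lost 6 and gave no value for 9. The counts of members called at 6 h and between genotypes under isosmotic conditions stayed within 1.5 times in every alternative run. The others moved, and the cause was not tested. The shares of all genes called in these fits are not given here. A general change in the number of calls and a change of the Hox genes therefore cannot be told apart. For 1 h of stress with DMSO (5 called), DESeq2 called 8, the libraries compared 10 and the 12 WT libraries 11, and leaving out 1 library gave 1 to 3. For 1 h with SFN (6 called), the 12 WT libraries gave 10 and leaving out 1 library 1 to 2. For SFN against DMSO (0 called), the isosmotic count was 2 with DESeq2, 1 with at least 10 counts, 1 with the libraries compared and 6 with the 12 WT libraries, and the 1 h count 2 with the libraries compared and 1 with the 12 WT libraries. Between genotypes at 1 h (10 called), the libraries compared gave 3. For 1 h in Nrf2-/- cells (7 called), at least 10 counts gave 4, the libraries compared 0 and leaving out 1 library 3 to 13. For the interaction (0 called), DESeq2 gave 1 and leaving out 1 library 0 to 7. For 6 h against 1 h with DMSO (20 called), leaving out 1 library gave 13 to 14.

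With the replicate number as a block, 21 members in place of 22 were called at 6 h with SFN, and the other counts did not move (5, 18 and 6 for the other stress comparisons in WT, 12 and 10 between genotypes, 7 in Nrf2-/- cells). The labels' replicate numbers did not pair the samples. With 2 libraries a group, members near 1 CPM carry wide errors: the SE of Hoxc9 and Hoxc4 was 0.397 to 0.708 on the log2 scale, against a median of 0.203 to 0.215 over the expressed members in comparisons of 2 groups.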
